A study of Homo sapiens with 6 samples.

Results

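The 32 genes described here are the transcription factor ATF4 and known or proposed targets of it that make, convert or import amino acids or act as stress regulators. They were taken by symbol from a list drawn up by function, with earlier results of these data known. All 32 were found among the 38126 Ensembl gene IDs of the series. Expression was measured by RNA-seq of total RNA from HK-2, an immortalised cell line of human renal proximal tubular epithelium, in cells exposed to phosphoramidon for 24 h (n = 3) and in cells labelled untreated (n = 3). Phosphoramidon is a bacterial compound that blocks zinc-dependent peptidases, among them thermolysin and neprilysin. Both groups were grown in serum-free keratinocyte medium with bovine pituitary extract and recombinant human EGF. The sources used here give neither the dose of phosphoramidon nor whether the untreated cells received a vehicle. Titles of the untreated libraries also hold the unexplained letters CSE; the treatment label was followed. HK-2 is a single line. The labels do not say whether replicates were separate cultures, so each p-value speaks of the spread among these 6 libraries, and that spread may be technical.

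ATF4 is the main transcriptional arm of the integrated stress response. Kinases that sense amino acid shortage, misfolded protein in the endoplasmic reticulum, double-stranded RNA or haem shortage phosphorylate the translation factor eIF2, which slows protein synthesis in general but favours translation of the ATF4 mRNA; growth signalling through mTORC1 also raises ATF4. The protein pairs with C/EBP family members on C/EBP-ATF response elements and turns on genes for amino acid synthesis, amino acid transport and tRNA charging. Because ATF4 is controlled to a large extent at translation, its mRNA level is not a measure of its protein. The proximal tubule takes back most filtered amino acids from the urine and is a site of serine, glycine and arginine metabolism.

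The deposited unit was FPKM, fragments per kilobase of gene length scaled to the library's assigned total, which corrects each gene for its length and each library for its depth. The libraries held 18718707 to 24956540 recovered fragments in phosphoramidon and 23529820 to 24851847 in untreated cells, and 1 fragment on a gene of 1 kb was worth 0.0401 to 0.0535 FPKM. Levels are given in the deposited FPKM. A fold change is phosphoramidon over untreated on the log2(FPKM + 0.1) scale after a scaling factor between libraries, with its standard error from limma, and a gene is called higher or lower where the limma p-value, adjusted by Benjamini-Hochberg over all 16173 tested genes, was below 0.05. HK-2 expressed the tubular regulator PAX8 (70.5 ± 1.59 FPKM in phosphoramidon and 63.7 ± 1.91 FPKM in untreated cells, SD, n = 3 each), while the mature proximal tubule genes LRP2, CUBN, ANPEP, AQP1 and HNF4A did not pass 0.124 FPKM in any library. Of the proximal tubule markers 3 of 8 tested were lower and 0 higher (summed level 128.8 to 134.8 FPKM in phosphoramidon and 149.6 to 152.9 FPKM in untreated libraries). Of the epithelial markers 3 of 5 were lower and 0 higher (200.3 to 214.8 and 327.9 to 365.3 FPKM). Over all tested genes 18.0% were lower and 15.6% higher. Of the 6 fibroblast or pericyte markers examined, 4 were tested and 4 were lower, beside 18.0% of all tested genes. The summed level of the 6 was 23.5 to 24.9 FPKM in phosphoramidon and 60.8 to 65.7 FPKM in untreated libraries. LUM had 19.9 ± 0.553 FPKM in phosphoramidon and 53.0 ± 2.85 FPKM in untreated cells (log2 fold change -1.48 ± 0.04, limma adjusted p = 1.3e-06). COL1A1 had 4.12 ± 0.241 and 10.1 ± 0.676 FPKM in the same order (-1.34 ± 0.06, limma adjusted p = 5.3e-06). DCN and PDGFRB did not pass 0.560 FPKM and PDGFRA did not pass 0.0169 FPKM in any library. COL3A1 was at 0 in all 6 libraries. The part of these markers in the results was not tested. The summed levels of the endothelial, leukocyte and collecting duct markers did not pass 0.134 FPKM in any library.

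All 32 genes passed the filter on low values. Of them, 21 were lower in phosphoramidon, beside 18.0% of all tested genes, 2 were higher, beside 15.6% of all tested genes, and 9 did not pass the test. In all, 33.6% of tested genes were called in either direction. The 32 genes were chosen with earlier results of these data known, so these counts describe the list and are no independent evidence. The median log2 fold change of the 32 genes was -0.33, with a range of -1.59 to 0.34, and the median over all tested genes was 0.01. A stricter test, limma's treat, asked whether a change exceeded 1.5-fold: 4 of the 32 were lower by that test (SLC6A9, SLC7A11, STC2 and PYCR1), beside 0.655% of all tested genes. With FPKM taken as deposited, with no factor between libraries, 3646 tested genes were called higher and 2169 lower, against 2528 higher and 2904 lower with the factors, and among the 32 genes 18 were then lower and 3 higher.

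The groups did not overlap in the deposited FPKM for 25 of the 32 genes. Every phosphoramidon library lay below every untreated one for 20 of them, beside 18.4% of all tested genes. Every phosphoramidon library lay above every untreated one for 5 (SLC7A1, SLC1A4, SLC38A2, ATF5 and SESN2), beside 31.3% of all tested genes. The first 3 of those 5 did not pass the test after scaling, and CEBPB passed it although its groups overlapped. In a bulk sample, fewer cells that express a gene and less RNA per cell cannot be told apart.

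**Figure D1:**
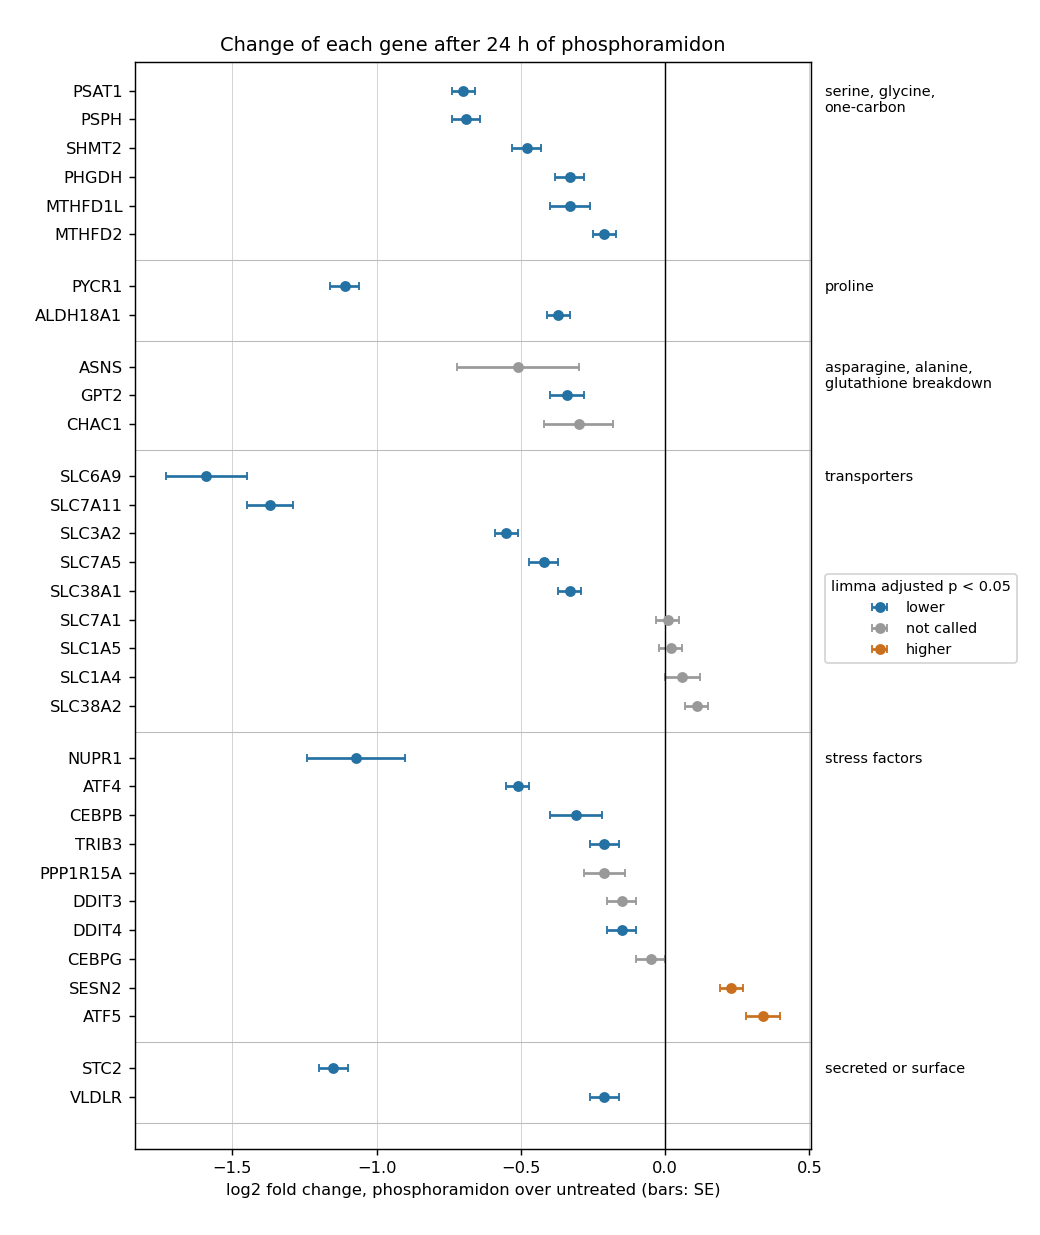
Log2 fold change (phosphoramidon over untreated, horizontal axis) of the 32 genes grouped by role, with points for the limma estimate, bars for its standard error and colours for the call at an adjusted p of 0.05. The 6 serine and folate enzymes and both proline enzymes lie left of 0, while the transporters run from -1.59 (SLC6A9) to 0.11 (SLC38A2).

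The element that ATF4 and its C/EBP partners bind was looked for in these genes' promoters. Promoters from RefSeq (GRCh38.p14, 250 bases before to 50 after each annotated start) were searched on both strands for TGATGNAA, the core of the C/EBP-ATF response element, which reads TTNCATCA on the other strand. The promoter table held 26 of the 32 genes; PSPH, SHMT2, PYCR1, GPT2, SLC7A11 and NUPR1 had no entry. The core was found in 9 of the 26 (34.6%), beside 314 of 11438 tested genes with an entry (2.75%). Counted by promoter, since a gene can have several starts, it was in 11 of 44 of these genes' promoters (25%), beside 334 of 16574 promoters of tested genes (2.02%). In 2 of those 11 it was an MTHFD1L site already counted in another, overlapping promoter of that gene. Many of the genes are known ATF4 targets, some of them because of such an element, so the share describes the list and is no independent evidence. Sites of 8 of the genes follow, in 30 bases written 5′ to 3′ in the direction of the core, with the core in capitals and the gene's call in these libraries given after them; the site of SLC3A2 lay too near the end of its window to be shown.
ASNS, chr7:97872458-97872487, minus strand: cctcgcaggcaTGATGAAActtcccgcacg
SLC7A1, chr13:29595663-29595692, minus strand: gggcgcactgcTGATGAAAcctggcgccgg
SLC38A1, chr12:46266502-46266531, minus strand: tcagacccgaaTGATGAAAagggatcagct
CEBPG, chr19:33374060-33374089, plus strand: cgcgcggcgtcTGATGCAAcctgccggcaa
CHAC1, chr15:40953251-40953280, minus strand: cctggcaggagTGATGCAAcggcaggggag
MTHFD1L, chr6:150866346-150866375, plus strand: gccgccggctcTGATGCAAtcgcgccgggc
SLC1A4, chr2:64989381-64989410, minus strand: ccggctggagaTGATGCAAacgggagccgc
SLC1A5, chr19:46784893-46784922, minus strand: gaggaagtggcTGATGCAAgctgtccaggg

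The core read TGATGAAA in ASNS, SLC7A1 and SLC38A1 and TGATGCAA in the other 5. In CHAC1 and SLC1A4 it lay on the strand opposite to the gene. Sites were placed by annotated RefSeq starts, which need not be the outermost start of the gene. Apart from SLC7A1, whose shown site spans the outermost GENCODE 29 start, each shown site lay inside the gene's GENCODE span, those of SLC1A5 and SLC38A1 furthest from its outermost start. The core was found in 3 of the 15 lower genes with an entry (20%; MTHFD1L, SLC38A1 and SLC3A2), in 0 of the 2 higher ones and in 6 of the 9 that did not pass the test (66.7%). The difference between these shares was not tested, and the absence of these letters from a window says nothing about ATF4 binding elsewhere.

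ATF4 mRNA (ENSG00000128272, chromosome 22, 39519695 to 39522685, plus strand, GRCh38) was itself lower in phosphoramidon. It measured 90.1, 86.0 and 85.8 FPKM in the phosphoramidon libraries, against 118.9, 122.1 and 115.3 FPKM in the untreated ones. All 3 phosphoramidon libraries lay below all 3 untreated libraries, and the log2 fold change was -0.51 ± 0.04 (SE; limma adjusted p = 6.3e-05). ATF4 pseudogenes did not pass 0.351 FPKM in any library.

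All 6 enzymes of serine synthesis and the mitochondrial folate pathway among the 32 genes fell, beside 18.0% of all tested genes. Their log2 fold changes had a median of -0.41. Serine is made from a glycolytic intermediate by PHGDH, PSAT1 and PSPH in turn, SHMT2 splits it in mitochondria into glycine and a carbon unit carried on folate, and MTHFD2 and MTHFD1L oxidise and release that unit as formate. The lowest estimates were those of PSAT1 and PSPH, the later steps of serine synthesis. PSAT1, the aminotransferase (ENSG00000135069, chromosome 9, 78297143 to 78330093, plus strand), measured 17.9, 16.9 and 18.5 FPKM in phosphoramidon, against 27.1, 28.1 and 27.5 FPKM in untreated cells. PSPH, the phosphatase that ends the pathway, measured 11.04, 10.2 and 10.5 FPKM in phosphoramidon, against 16.4, 15.9 and 16.5 FPKM in untreated cells. Neither gene's groups overlapped, and the changes were close to each other at -0.70 ± 0.04 for PSAT1 (adjusted p = 2.0e-05) and -0.69 ± 0.05 for PSPH (adjusted p = 4.3e-05).

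PHGDH, the committing dehydrogenase of the pathway, had a smaller estimated change, a difference that was not tested. It measured 7.45, 7.005 and 7.53 FPKM in phosphoramidon, against 8.99, 8.98 and 8.33 FPKM in untreated cells (log2 fold change -0.33 ± 0.05, adjusted p = 0.0023). SHMT2 measured 21.0, 20.3 and 21.9 FPKM in phosphoramidon, against 28.99, 28.99 and 25.9 FPKM in untreated cells (-0.48 ± 0.05, adjusted p = 3.2e-04). In both genes untreated replicate 3 was the lowest of its group and still lay above every phosphoramidon library. MTHFD1L fell by 0.33 ± 0.07 on the log2 scale (6.24 ± 0.323 FPKM in phosphoramidon and 7.52 ± 0.470 FPKM in untreated cells, SD, n = 3 each; adjusted p = 0.0056). MTHFD2, an enzyme of low level in most adult tissues and high in proliferating cells, had the smallest estimate of the 6, -0.21 ± 0.04 (23.1 ± 0.140 FPKM in phosphoramidon and 25.4 ± 0.704 FPKM in untreated cells; adjusted p = 0.0029).

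The cytosolic counterparts did not all move in the same way. SHMT1, the cytosolic serine hydroxymethyltransferase, had 9.35 ± 0.207 FPKM in phosphoramidon and 8.75 ± 0.0924 FPKM in untreated cells (log2 fold change 0.02 ± 0.05, adjusted p = 0.73), whereas cytosolic MTHFD1 fell by 0.28 ± 0.04 on the log2 scale (adjusted p = 0.0012). MTHFD2L, a mitochondrial relative of MTHFD2, had 1.05 ± 0.0835 FPKM in phosphoramidon and 0.982 ± 0.113 FPKM in untreated cells. Its groups overlapped and it did not pass the test (0.03 ± 0.13, limma adjusted p = 0.9). SHMT1, MTHFD1 and MTHFD2L were picked with their values known. Among 19 tested genes of a wider serine, glycine and folate list, 5 were lower (26.3%, beside 18.0% of all tested genes) and 3 higher (15.8%, beside 15.6%), and the median log2 fold change was -0.04. Called genes of that list with the largest changes were ALDH1L2, the mitochondrial formyl-folate dehydrogenase (1.24 ± 0.223 FPKM in phosphoramidon and 3.13 ± 0.0966 FPKM in untreated cells; -1.35 ± 0.12), SDS, a serine dehydratase with a mean of only 51 fragments (-1.34 ± 0.17), CTH, which makes cysteine from cystathionine (5.27 ± 0.497 and 9.09 ± 0.653 FPKM in the same order; -0.85 ± 0.08), and GLDC, the decarboxylase of the glycine cleavage system, which was higher (5.58 ± 0.00231 and 3.79 ± 0.163 FPKM; 0.48 ± 0.06). Their limma adjusted p-values were 1.1e-04, 5.5e-04, 1.6e-04 and 5.5e-04.

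Both enzymes of proline synthesis among the 32 genes fell, beside 18.0% of all tested genes. ALDH18A1, which reduces glutamate to the intermediate pyrroline-5-carboxylate, measured 67.2, 63.7 and 63.4 FPKM in phosphoramidon, against 80.6, 81.3 and 77.5 FPKM in untreated cells (log2 fold change -0.37 ± 0.04, adjusted p = 3.8e-04). PYCR1, the mitochondrial reductase that completes proline (ENSG00000183010, chromosome 17, 81932384 to 81942412, minus strand), measured 8.97, 8.22 and 8.73 FPKM in phosphoramidon, against 18.0, 18.3 and 17.5 FPKM in untreated cells. The highest phosphoramidon value of PYCR1 was thus far below the lowest untreated value, and the log2 fold change was -1.11 ± 0.05 (adjusted p = 4.3e-06; past 1.5-fold, treat adjusted p = 7.7e-04). Its exons share 408 bases with MYADML2 on the same strand, a gene that did not pass 0.0329 FPKM.

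PYCR3, the cytosolic pyrroline-5-carboxylate reductase, was also lower. It measured 1.36, 1.15 and 1.35 FPKM in phosphoramidon, against 2.11, 2.19 and 1.96 FPKM in untreated cells, with no overlap (-0.73 ± 0.10, adjusted p = 9.7e-04). The difference in size of change between PYCR1 and PYCR3 was not tested. In a wider list of proline, glutamate, alanine, aspartate and arginine genes, 6 of 20 were lower and 6 higher (30% each). Over all tested genes 18.0% were lower and 15.6% higher. The median of that list was -0.02 on the log2 scale. Named from that list were BCAT1, the cytosolic branched-chain aminotransferase (18.7 ± 1.002 FPKM in phosphoramidon and 35.4 ± 1.56 FPKM in untreated cells; -0.99 ± 0.05, adjusted p = 5.4e-06), ASS1, the argininosuccinate synthase of arginine synthesis (7.61 ± 0.0860 and 12.2 ± 0.390 FPKM; -0.74 ± 0.05, adjusted p = 2.8e-05), and GOT1, the cytosolic aspartate aminotransferase, which was higher (27.9 ± 1.33 and 17.2 ± 0.525 FPKM; 0.62 ± 0.05, adjusted p = 5.1e-05).

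Of the asparagine, alanine and glutathione enzymes, 1 of 3 passed the test and was lower (33.3%, beside 18.0% of all tested genes). GPT2, the mitochondrial alanine aminotransferase, measured 12.1, 10.7 and 11.9 FPKM in phosphoramidon, against 13.7, 14.6 and 13.6 FPKM in untreated cells (-0.34 ± 0.06, adjusted p = 0.0025). CHAC1, which breaks down glutathione, measured 2.32, 2.04 and 2.19 FPKM in phosphoramidon, against 2.93, 2.69 and 2.16 FPKM in untreated cells, so that untreated replicate 3 lay among the phosphoramidon ones (-0.30 ± 0.12, adjusted p = 0.086). Without that library CHAC1 passed the test, at -0.42 (adjusted p = 0.02).

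ASNS, asparagine synthetase and one of the best known ATF4 targets, could not be read with confidence. It was listed at 0.0874, 0.0738 and 0.0731 FPKM in phosphoramidon and at 0.0869, 0.160 and 0.214 FPKM in untreated cells, a mean of 13 fragments, with overlapping groups (-0.51 ± 0.21, adjusted p = 0.091; -0.10 with a pseudocount of 1 FPKM and -0.93 with voom). In the GENCODE 29 annotation, 96.1% of its coding bases lie also in another gene on the same strand, AC079781.5, listed at 0.0833 to 0.187 FPKM in phosphoramidon and 0.0751 to 0.0958 FPKM in untreated libraries. Counting by gene can leave a read that fits both unassigned, so the listed value may leave out most ASNS reads.

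Of the 9 transporters, 5 fell (55.6%, beside 18.0% of all tested genes) and 4 did not pass the test. The median log2 fold change was -0.33. SLC7A11, the cystine and glutamate exchanger that supplies cysteine (ENSG00000151012, chromosome 4, 138164097 to 138242349, minus strand), measured 2.12, 2.11 and 2.49 FPKM in phosphoramidon, against 5.19, 6.07 and 5.69 FPKM in untreated cells. The groups were far apart, with a log2 fold change of -1.37 ± 0.08 (adjusted p = 1.9e-05; past 1.5-fold, treat adjusted p = 0.0017). SLC3A2, the heavy chain that carries both SLC7A11 and SLC7A5 to the plasma membrane, measured 10.9, 10.8 and 11.2 FPKM in phosphoramidon, against 15.3, 15.8 and 14.6 FPKM in untreated cells (-0.55 ± 0.04, adjusted p = 6.0e-05). SLC7A5, which imports leucine and other large neutral amino acids, measured 20.6, 19.5 and 20.7 FPKM in phosphoramidon, against 26.8, 25.9 and 24.9 FPKM in untreated cells (-0.42 ± 0.05, adjusted p = 3.2e-04). The heavy chain and both light chains thus all fell. The estimates of the light chains differed in size, and that difference was not tested. A pseudogene, SLC7A5P1, reached 2.14 FPKM and could share reads with SLC7A5.

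SLC6A9, a glycine transporter (ENSG00000196517, chromosome 1, 43991500 to 44031467, minus strand), was lower at a low level. It measured 0.259, 0.218 and 0.287 FPKM in phosphoramidon, against 0.941, 0.909 and 0.914 FPKM in untreated cells, a mean of 71 fragments. No phosphoramidon library came near the untreated ones, and the log2 fold change was -1.59 ± 0.14 (adjusted p = 1.1e-04; past 1.5-fold, treat adjusted p = 0.0089). At this level its size depended on the pseudocount: it was -0.64 with 1 FPKM and -1.89 with 0.01 FPKM, called in both cases, and with 1 FPKM the changes of SLC7A11 (-1.09), PYCR1 (-1.04), STC2 (-1.04) and PSAT1 (-0.68) were larger. It shares 404 exon bases with CCDC24 on the opposite strand, a gene listed at 0.826 to 1.06 FPKM in phosphoramidon and 0.958 to 1.12 FPKM in untreated libraries, and the sources used here do not say whether the counting used strand.

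The sodium-coupled neutral amino acid transporters SLC38A1 and SLC38A2, neighbours on chromosome 12, differed in direction of estimate. SLC38A1 fell, at 25.8, 26.1 and 26.9 FPKM in phosphoramidon, against 30.3, 32.6 and 31.6 FPKM in untreated cells (-0.33 ± 0.04, adjusted p = 3.0e-04). SLC38A2, the most abundant of the 32 genes per length in phosphoramidon, measured 116.2, 123.8 and 121.9 FPKM, against 102.1, 107.8 and 109.0 FPKM in untreated cells. Its groups did not overlap as deposited, but its log2 fold change after scaling was 0.11 ± 0.04 and missed the threshold (adjusted p = 0.058). SLC38A2 passed with FPKM as deposited (0.18, adjusted p = 0.0078). With the scaling kept, it also passed with voom (0.11, adjusted p = 0.023) and with the replicate number as a block (0.11, adjusted p = 0.043).

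SLC7A1, SLC1A4 and SLC1A5 did not pass the test. SLC7A1, the cationic amino acid transporter for arginine and lysine, had 20.7 ± 0.723 FPKM in phosphoramidon and 19.5 ± 0.406 FPKM in untreated cells (0.01 ± 0.04, adjusted p = 0.83). SLC1A5, the main glutamine carrier of many cultured cells, had 45.6 ± 1.52 FPKM in phosphoramidon and 42.9 ± 1.41 FPKM in untreated cells (0.02 ± 0.04, adjusted p = 0.80). SLC1A4, which carries serine, alanine and cysteine, had 6.68 ± 0.0629 FPKM in phosphoramidon and 6.09 ± 0.425 FPKM in untreated cells (0.06 ± 0.06, adjusted p = 0.47). The estimates of SLC7A1 and SLC1A5 were close enough to 0 that the sign depended on the scaling or on the library left out, between -0.01 and 0.09.

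**Figure D2:**
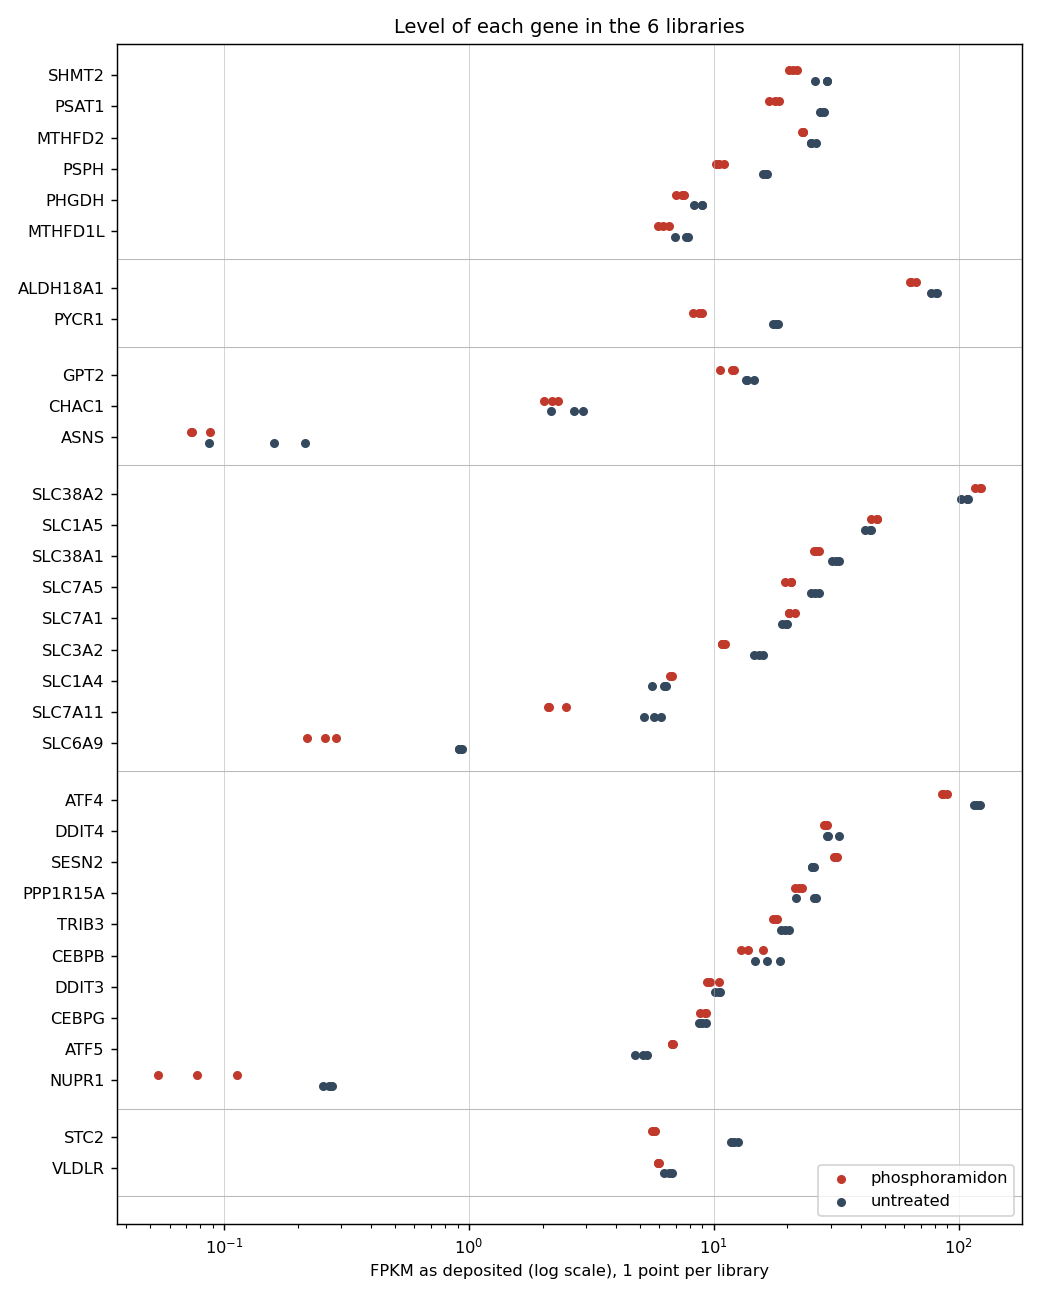
Deposited FPKM (log axis) of the 32 genes in each of the 6 libraries, grouped by role, with phosphoramidon points drawn above untreated points in each row. SLC38A2, ATF4 and ALDH18A1 stand highest, ASNS and NUPR1 lowest, and the colours separate for SLC7A11, SLC6A9, PYCR1 and STC2.

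Among 26 tested genes of other amino acid transporters, 5 were lower (19.2%, near the 18.0% of all tested genes) and 1 higher (3.85%, beside 15.6%). The median log2 fold change was -0.08. SLC38A5, a glutamine and glycine carrier, measured 1.09, 0.919 and 1.25 FPKM in phosphoramidon, against 3.42, 2.88 and 2.93 FPKM in untreated cells (-1.49 ± 0.13, adjusted p = 7.8e-05). Its relative SLC38A3 had 1.52 ± 0.200 FPKM in phosphoramidon and 2.80 ± 0.472 FPKM in untreated cells (-0.90 ± 0.15, adjusted p = 0.0024), and SLC6A15, a carrier of branched-chain amino acids and proline, had 2.57 ± 0.212 and 3.50 ± 0.155 FPKM in the same order (-0.50 ± 0.08, adjusted p = 0.0019). The 1 that rose was the arginine transporter SLC7A2 (14.2 ± 0.957 FPKM in phosphoramidon and 10.7 ± 0.131 FPKM in untreated cells; 0.33 ± 0.05, adjusted p = 0.0014).

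The 10 transcription factors and stress regulators held both genes that rose. Besides ATF4, TRIB3, CEBPB, DDIT4 and NUPR1 were lower, so that 50% of the 10 were, beside 18.0% of all tested genes. ATF5 and SESN2 were higher (20%, beside 15.6%), while DDIT3, CEBPG and PPP1R15A did not pass the test. The median log2 fold change was -0.18. ATF5, a bZIP factor close to ATF4, measured 6.73, 6.76 and 6.84 FPKM in phosphoramidon, against 5.17, 4.76 and 5.34 FPKM in untreated cells. Its groups were separate (0.34 ± 0.06, adjusted p = 0.0036), but 626 of its 2954 exon bases lie opposite NUP62, so without strand the reads of the pair cannot be told apart. NUP62 was listed at 14.6, 14.9 and 16.1 FPKM in phosphoramidon, against 13.6, 12.9 and 13.1 FPKM in untreated cells, and its part in the ATF5 value was not tested. SESN2, a sestrin that senses leucine and restrains mTORC1, measured 31.8, 31.2 and 30.9 FPKM in phosphoramidon, against 25.1, 25.6 and 25.2 FPKM in untreated cells. The lowest phosphoramidon library of SESN2 lay above the highest untreated one (0.23 ± 0.04, adjusted p = 0.0018).

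TRIB3, a pseudokinase that feeds back on ATF4, measured 18.1, 17.9 and 17.4 FPKM in phosphoramidon, against 20.4, 19.5 and 18.9 FPKM in untreated cells (-0.21 ± 0.05, adjusted p = 0.011). NUPR1, a small stress-induced chromatin protein, was lower at a level near the limit of detection, with 0.113, 0.0778 and 0.0540 FPKM in phosphoramidon, against 0.278, 0.254 and 0.270 FPKM in untreated cells. Its groups did not overlap, but it averaged only 23 fragments (-1.07 ± 0.17, adjusted p = 0.002), and the estimate was -0.24 with a pseudocount of 1 FPKM and -1.79 with voom. CEBPB, a dimer partner of ATF4, measured 13.8, 12.9 and 15.8 FPKM in phosphoramidon, against 14.8, 18.7 and 16.6 FPKM in untreated cells; its groups overlapped and its call (-0.31 ± 0.09, adjusted p = 0.034) did not hold without phosphoramidon replicate 1 or 2 or untreated replicate 2 or 3 (adjusted p of 0.078 to 0.1), with FPKM as deposited (-0.23, adjusted p = 0.11) or with a plain variance prior (adjusted p = 0.081). DDIT4, an inhibitor of mTORC1, measured 28.1, 28.8 and 28.9 FPKM in phosphoramidon, against 29.2, 32.6 and 29.1 FPKM in untreated cells. Those groups all but touched, and its call (-0.15 ± 0.05, adjusted p = 0.032) was lost on leaving out any 1 phosphoramidon library or without untreated replicate 2 (adjusted p of 0.07 to 0.1), with FPKM as deposited (-0.08, adjusted p = 0.23) or with a plain variance prior (adjusted p = 0.094).

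DDIT3, which encodes the stress factor CHOP, had 9.87 ± 0.582 FPKM in phosphoramidon and 10.4 ± 0.253 FPKM in untreated cells with overlapping groups (-0.15 ± 0.05, adjusted p = 0.052; -0.08 with FPKM as deposited; -0.19 and 0.035 without phosphoramidon replicate 3). PPP1R15A, the regulatory subunit that returns eIF2 to its dephosphorylated state, had 22.2 ± 0.724 FPKM in phosphoramidon and 24.5 ± 2.53 FPKM in untreated cells (-0.21 ± 0.07, adjusted p = 0.061; -0.29 and 0.0055 without untreated replicate 3). CEBPG, which forms dimers with ATF4, had 9.10 ± 0.282 FPKM in phosphoramidon and 8.998 ± 0.318 FPKM in untreated cells (-0.05 ± 0.05, adjusted p = 0.46). For CEBPG the sign turned to 0.02 with FPKM as deposited. DDIT3 shares 413 of its 1307 exon bases with genes on the opposite strand.

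Both genes for secreted or surface proteins fell, beside 18.0% of all tested genes. STC2, stanniocalcin 2, a secreted glycoprotein (ENSG00000113739, chromosome 5, 173314713 to 173329503, minus strand), measured 5.61, 5.71 and 5.75 FPKM in phosphoramidon, against 12.1, 12.6 and 11.7 FPKM in untreated cells. The groups were tight and well apart, and the log2 fold change was -1.15 ± 0.05 (adjusted p = 3.0e-06; past 1.5-fold, treat adjusted p = 4.1e-04). VLDLR, a lipoprotein receptor, measured 5.93, 5.97 and 5.92 FPKM in phosphoramidon, against 6.29, 6.58 and 6.76 FPKM in untreated cells (-0.21 ± 0.05, adjusted p = 0.014), and did not pass with FPKM as deposited (-0.14, adjusted p = 0.067).

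**Figure D3:**
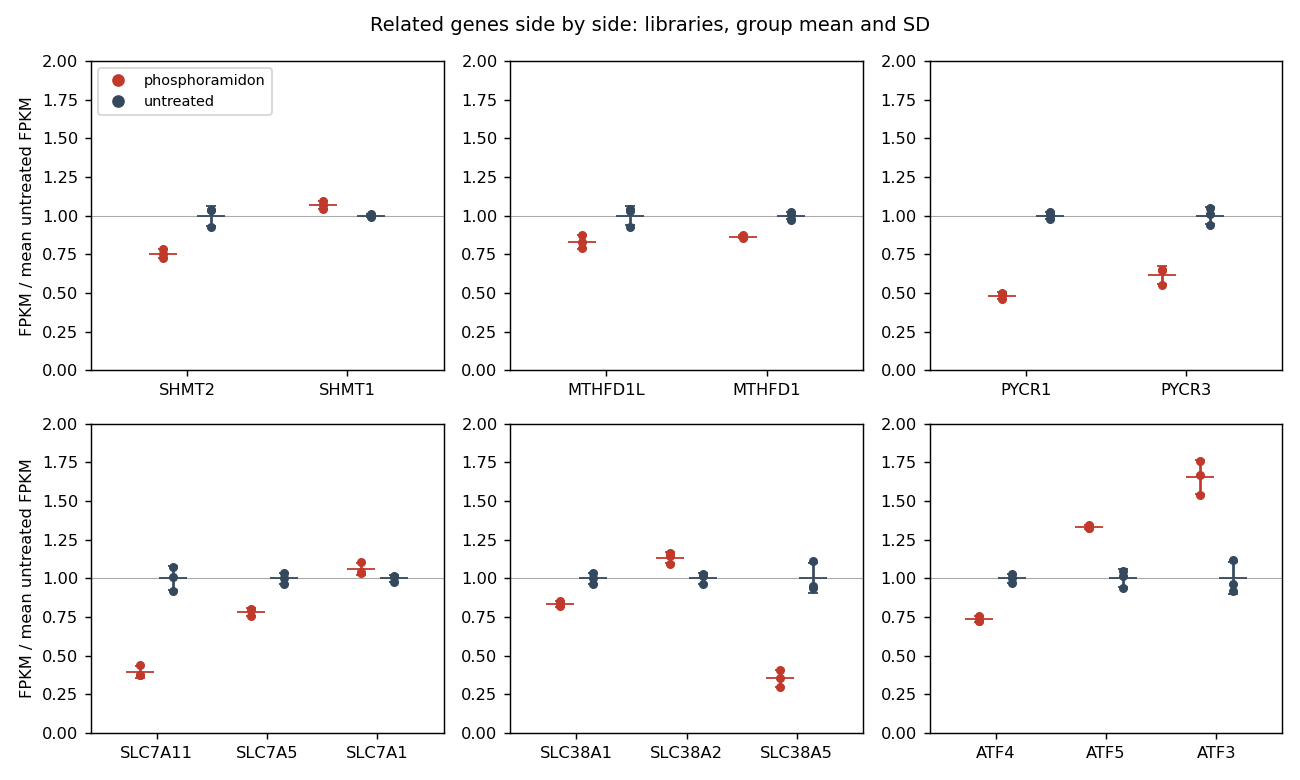
Deposited FPKM divided by the gene's mean in untreated cells (vertical axis), for 6 sets of related genes, with 1 point per library and bars for the group mean and SD. PYCR1 and PYCR3 lie below 1 in phosphoramidon, SLC38A1 and SLC38A5 below 1 and SLC38A2 above it, and ATF4 below 1 where ATF5 and ATF3 lie above it.

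A further list of 29 tested genes linked to ATF4 in earlier work had a median log2 fold change of -0.28. Of these, 15 were lower (51.7%, beside 18.0% of all tested genes) and 6 higher (20.7%, beside 15.6%). This list was chosen with earlier results of these data known, as were the other lists. INHBE, an activin and inhibin subunit, had the largest change of that list, at 2.44, 1.99 and 2.098 FPKM in phosphoramidon, against 7.80, 7.27 and 7.32 FPKM in untreated cells (-1.81 ± 0.09, adjusted p = 6.5e-06), and ALDH1L2, described above, is in it too. Among the genes that rose were CLGN, an endoplasmic reticulum chaperone (2.57 ± 0.332 FPKM in phosphoramidon and 1.225 ± 0.115 FPKM in untreated cells; 0.94 ± 0.11, adjusted p = 4.7e-04), and SESN3, a sestrin with a mean of 67 fragments (0.410 ± 0.0921 and 0.164 ± 0.00694 FPKM; 0.88 ± 0.17, adjusted p = 0.0054). The following were picked after their values were seen. All 6 aminoacyl-tRNA synthetases of the list, which charge tRNAs for protein synthesis, were lower: GARS1 by 0.61, WARS1 by 0.54, AARS1 by 0.41, CARS1 by 0.37, NARS1 by 0.35 and SARS1 by 0.28 on the log2 scale. ATF3, a stress factor usually placed downstream of ATF4, was higher, at 5.32, 5.61 and 4.91 FPKM in phosphoramidon, against 3.56, 3.08 and 2.93 FPKM in untreated cells (0.64 ± 0.09, adjusted p = 0.0011).

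The 17 genes for the eIF2 kinases, eIF2, its exchange factor eIF2B and their regulators had a median log2 fold change of -0.06. Of these, 5 were lower (29.4%, beside 18.0% of all tested genes), 1 was higher (5.88%, beside 15.6%) and 11 did not pass. The lower ones included all 3 subunits of eIF2: EIF2S3 (96.3 ± 0.565 FPKM in phosphoramidon and 114.8 ± 1.6 FPKM in untreated cells; -0.33 ± 0.03, adjusted p = 2.5e-04), EIF2S2 (-0.32 ± 0.06, adjusted p = 0.0028) and EIF2S1 (-0.18 ± 0.04, adjusted p = 0.0071). GCN1, which activates the amino acid sensing kinase, was lower by 0.20 ± 0.05 with overlapping groups (adjusted p = 0.014). The endoplasmic reticulum kinase EIF2AK3 was lower by 0.17 ± 0.04 (adjusted p = 0.017) and EIF2AK2, the kinase that binds double-stranded RNA, higher by 0.15 ± 0.05 (adjusted p = 0.046), both given after their values were seen.

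Of 20 genes of the IRE1 and ATF6 arms of the unfolded protein response, 3 were lower (15%, beside 18.0% of all tested genes) and 6 higher (30%, beside 15.6%), with a median log2 fold change of 0.00. XBP1, the factor that IRE1 splices, was lower (30.9 ± 1.75 FPKM in phosphoramidon and 38.6 ± 1.019 FPKM in untreated cells; -0.39 ± 0.05, adjusted p = 7.7e-04), as was the translocon subunit SEC61B (-0.29 ± 0.06, adjusted p = 0.0042). SEL1L, of the degradation complex of the endoplasmic reticulum (25.2 ± 0.523 and 18.1 ± 0.710 FPKM; 0.40 ± 0.04, adjusted p = 1.6e-04), and MANF (0.23 ± 0.05, adjusted p = 0.0077) were higher. The chaperone HSPA5, chosen after its values were seen, had 339.7 ± 11.3 FPKM in phosphoramidon and 324.8 ± 4.71 FPKM in untreated cells (-0.01 ± 0.04, adjusted p = 0.92).

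The 22 tested genes that carry nutrient signals to mTORC1 or lie at its output had a median log2 fold change of 0.00. Of these, 5 were lower (22.7%, beside 18.0% of all tested genes) and 7 higher (31.8%, beside 15.6%). EIF4EBP1, the translation repressor that mTORC1 inactivates and an ATF4 target, fell to 40.1, 31.8 and 30.4 FPKM in phosphoramidon, against 52.3, 55.0 and 48.7 FPKM in untreated cells (-0.69 ± 0.11, adjusted p = 0.0027). SESN1 (2.88 ± 0.198 FPKM in phosphoramidon and 1.94 ± 0.190 FPKM in untreated cells; 0.48 ± 0.10, adjusted p = 0.0066) and the Rag GTPase RRAGD (3.38 ± 0.254 and 2.20 ± 0.133 FPKM; 0.53 ± 0.09, adjusted p = 0.0022) were higher. With SESN2 and SESN3, all 3 sestrins were therefore higher.

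**Figure D4:**
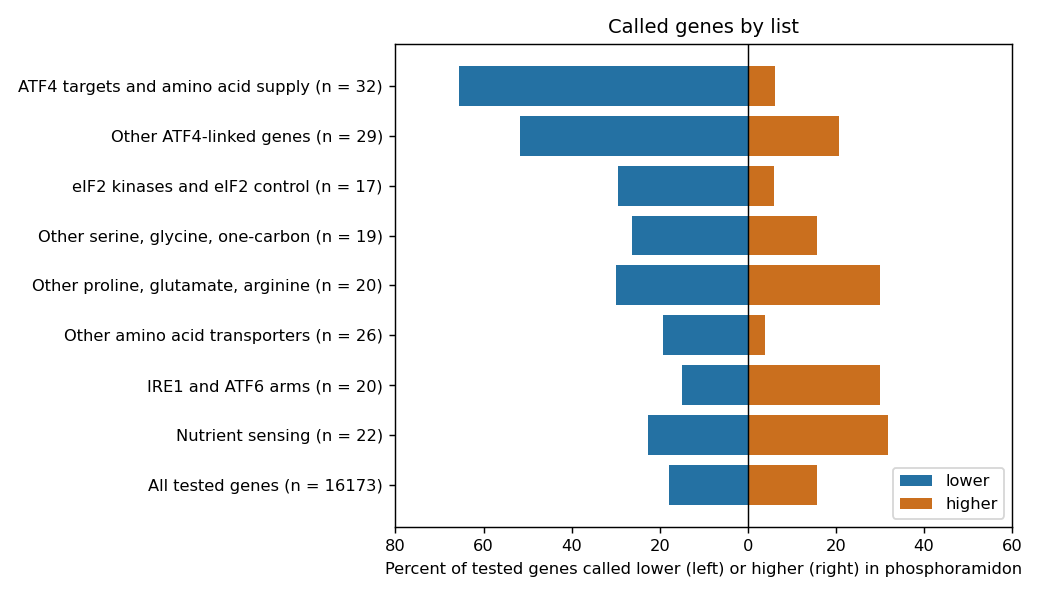
Percent of tested genes called lower (bars to the left) or higher (bars to the right) in phosphoramidon, for the 32 genes, for the 7 related lists and for all tested genes, with the number tested beside each name. The bar to the left is longest for the 32 genes (21 of 32) and next for the other ATF4-linked genes (15 of 29), while the unfolded protein response and nutrient sensing lists have longer bars to the right.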

How the data were processed

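RNA-seq libraries of HK-2 cells (3 phosphoramidon, 3 untreated, grouped by the treatment label) were deposited by the authors as FPKM per Ensembl gene, the unit being judged from the values. Per the submitters' processing notes, the tools were HISAT2 2.1.0 and featureCounts 1.6.0, with Trimmomatic 0.38, DESeq2 1.22.1, CASAVA, FastQC and MultiQC, no role stated, with build GRCh38; which annotation release was used, and whether strand was, is not given in the sources used here. Symbols came from a gene name table (37892 of 38126 IDs matched), coordinates and exon lengths from GENCODE 29.

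Fragments were recovered as FPKM times gene length over a step per library; 79.1% of 34623 genes above 0 gave whole fragments, within 0.05, at the GENCODE length, and for the rest a length was searched, so their fragments are less certain. Genes with at least 10 fragments in at least 3 libraries were tested. FPKM were divided by TMM factors (30% and 5% trims) from the fragments of those genes, and log2(FPKM + 0.1) was fitted in limma 3.58.1 (R 4.3.3) with the group alone, a trended and robust prior and Benjamini-Hochberg adjustment over all tested genes, at 0.05; treat was run at 1.5-fold. The fit was tested on simulated data. The alternatives tried were the scaling, pseudocount, filter, voom, variance prior, replicate block and leaving out each library; factors from all genes above 0 were added after seeing the data.

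The genes and lists were chosen with earlier results of these data known. Named list genes are the up to 4 called ones with the largest absolute change and a mean of at least 50 fragments; others are marked in the text. Markers KDR, CD3E and AQP2 and the transporter SLC7A3 were not analysed here. The results of some genes of these lists are left out of the text, though the lists' counts include them.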

Additional observations from a re-analysis of the deposited data

How the results depend on the processing

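Across 15 alternative settings none of the 32 genes' called changes reversed; of the values compared 441 kept their direction and side of the threshold, 11 passed it newly and 16 no longer passed. In 6, all of genes near 0 and never called, the sign turned: CEBPG to 0.02 with FPKM as deposited, SLC7A1 to -0.00 with factors from all genes above 0 and below 0 without phosphoramidon replicate 3 or untreated replicate 3 (range -0.01 to 0.03 over the libraries left out), and SLC1A5 below 0 without phosphoramidon replicate 1 or untreated replicate 3 (range -0.01 to 0.05). The median log2 fold change of the 32 genes was -0.26 with FPKM as deposited and -0.26 with a pseudocount of 1, against -0.33 as reported, and lay between -0.36 and -0.29 when each library was left out. Between 18 and 23 genes were lower over all settings, between 19 and 22 when each library was left out, and 2 or 3 were higher. The 4 genes lower past 1.5-fold were 3 with a pseudocount of 1, with no filter or with a mean of at least 1 FPKM, and 5 with voom. Not all 32 genes were tested in each setting. With a mean of at least 1 FPKM 29 were, without ASNS, SLC6A9 and NUPR1. On leaving out any untreated library 31 were, without ASNS. With no filter, 3515 of 34623 genes were called, against 5432 of 16173 as reported. The low genes then entered both the variance prior and the adjustment, and the part of each was not tested. Leaving out each library gave 4043 to 4823 called genes. With no filter CEBPB, DDIT4 and NUPR1 (adjusted p = 0.05) were no longer called. Samples with the same replicate number did not deviate together (correlations of 0.11, -0.02 and -0.01). This gave no sign of pairing, but it cannot show that samples of the same number were set up apart. With the replicate number as a block, 22 genes were lower, 3 higher and 4 lower past 1.5-fold, and the median was -0.33. In that fit 5448 genes of the table were called, SLC38A2 (adjusted p = 0.043) and PPP1R15A (adjusted p = 0.02) among them. The depth limits ASNS and NUPR1 most, with means of 13 and 23 fragments.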
